A study of Ambystoma mexicanum with 7 samples.

Results

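These are 10473 stretches of open chromatin of medium width, each found in all 3 groups of sorted axolotl limb cells. Each is a peak of the blastema list on a named chromosome arm, at least 500 and under 1500 bases wide, that a peak of intact limb and a peak of systemically activated limb both overlap by at least 1 base. They are 10473 of the 168368 blastema peaks, or 6.22% (exact binomial 95% interval 6.11 to 6.34). Of the 163517 blastema peaks on named arms, 6.40% met the rule, and 7.57% were overlapped by both limb lists at any width. The regions were selected on 2 measured values, the width of the blastema interval and its overlap with both limb lists. Width, overlap and strength are therefore described without a test. Of the 42278 blastema peaks on named arms in this width range, 24.8% were overlapped by both limb lists.

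The axolotl, Ambystoma mexicanum, is a salamander that regrows its limbs, and chromatin accessibility was measured here by ATAC-seq, in which the Tn5 transposase inserts sequencing adapters where DNA is not wrapped in nucleosomes. All animals were wild type, and each library started from 10000 live cells that flow cytometry had picked out for a 4C amount of DNA, so cells with unreplicated genomes were left out throughout. There were 7 samples: 3 were intact, homeostatic limb, 2 were systemically activated limb, and 2 were blastema that included its wound epidermis. Per the design text, the homeostatic or systemically activated limbs were taken 14 days after amputation, and no day is stated for blastema. Ages are not given either, and nothing says whether samples came from separate animals. The blastema, a bud of progenitors capped by wound epidermis, grows out of the stump, and systemic activation is the entry of cells into the cell cycle in uninjured limbs of an amputated animal. The blastema samples thus hold an epidermal tissue that the labels name for that group alone.

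As background, an ATAC-seq peak marks a gap in the nucleosome array, usually a promoter, an enhancer or an insulator site. A narrow peak is typical of a single bound element. A wider one can cover a promoter with its flanking nucleosomes or several elements side by side. A site open in many tissues is often a promoter of a widely used gene or an insulator, while enhancers tend to be open in fewer tissues. Which of these the regions are could not be determined from intervals alone. No genome of the build of the files was used here, so genes and sequences are not given.

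The data were 4 peak lists, 1 per group and 1 of all samples together, which held 25843 intact, 17326 systemically activated, 168368 blastema and 491444 all-sample peaks. Each list pools the samples of its group. There were thus no values per sample, no replicate spread and no test between conditions, and intervals given below cover counting error over regions only. Depth differed strongly between lists. The lowest background at a summit among the regions, in reads stacked per base, was 2.49 in blastema, 0.529 in intact limb and 0.375 in systemically activated limb. Where depth can move a value, the depths stand beside it, and their part in the result was not tested.

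The regions took up a large part of both limb lists. Of intact peaks, 11028 of 25843, or 42.7% (42.1 to 43.3), overlapped one of the regions, and of systemically activated peaks 10923 of 17326 did, or 63.0% (62.3 to 63.8). Among the strongest 10% of each list by −log10 q, the shares were 76.9% (1988 of 2584) for intact limb, 78.2% (1355 of 1732) for systemically activated limb and 50.3% (8473 of 16836) for blastema. Most strong limb peaks thus overlapped the regions, and about as many strong blastema peaks were regions as were not. The strongest 10% of blastema has more peaks (16836) than there are regions (10473), which caps its share. The blastema share is therefore not compared with the limb shares.

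The blastema intervals had a median width of 945 bases (95% interval of the median 937 to 950), and from 574 to 1396 bases between the 5th and 95th percentiles. Sharing with the limb lists went with width, as far as the rule lets this be read. Of blastema peaks of at least 500 and under 700 bases, 9.18% were overlapped by both limb lists. From 900 to under 1100 bases it was 43.4%, and from 1300 to under 1500 bases 68.2%. At the limits of width, the blastema fold was close on both sides. The 42 peaks at most 10 bases under the lower limit that both limb lists overlap had a median blastema fold of 4.73 over background, and the 57 regions in the first 10 bases of width above it had 4.69. At the upper limit, the 48 regions in the last 10 bases of width had a median fold of 4.64 and the 35 peaks in the next 10 bases had 4.63. The limb summits lay a median of 27.5 bases apart (16 to 56) just under the lower limit. Just above it the median was 60 bases (37 to 109), and these intervals overlap. At the upper limit these medians were 100 bases (46 to 171) inside and 94 bases (63 to 137) outside. Systemically activated intervals covered a median of 60.0% (51.6 to 65.5) just under the lower limit and 53.6% (48.9 to 62.5) just above it.

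How high reads were stacked at the summit, the highest point of a peak, was recovered from the authors' fold and p for every region in blastema, 10472 regions in intact limb and 10460 in systemically activated limb. The median pileup was 59 in blastema, 20 in intact limb and 16 in systemically activated limb, against median local backgrounds of 11.2, 2.64 and 1.72. Between the 5th and 95th percentiles the pileups ran from 30 to 86, from 11 to 34 and from 9 to 27. In cells sorted in bulk, fewer cells with an open site and less access per cell cannot be told apart in a pileup. Within a list, regions were stacked higher than the other blastema peaks of the same width range. The median blastema pileup was 40 for the 6142 peaks that intact limb alone overlaps, 37 for the 1692 that systemically activated limb alone overlaps and 27 for the 23971 that neither overlaps. The rule used the limb calls, so this order is a description. Widths were not matched either: 1824 of the 10473 regions were under 700 bases, against 19874 of all 42278 blastema peaks in the range.

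The limb intervals mostly lay inside the blastema intervals and were shorter. Intact intervals covered a median of 55.9% of a region (55.4 to 56.4) and systemically activated intervals 42.9% (42.4 to 43.3). The strongest limb interval in a region had a median width of 495 bases in intact limb and 381 bases in systemically activated limb. These widths followed the depth of the lists in order. The blastema interval reached beyond the intact interval by a median of 186 bases on the side of lower coordinates and 182 bases on the other, and beyond the systemically activated interval by 237 and 236 bases. Equal medians over regions do not show that an interval was centred in its own region. Single margins varied widely: before the intact interval, the 25th and 75th percentiles were 86 and 322 bases. The intact interval lay wholly inside the region in 89.0% of cases (88.4 to 89.6) and the systemically activated interval in 94.9% (94.5 to 95.4).

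**Figure D1:**
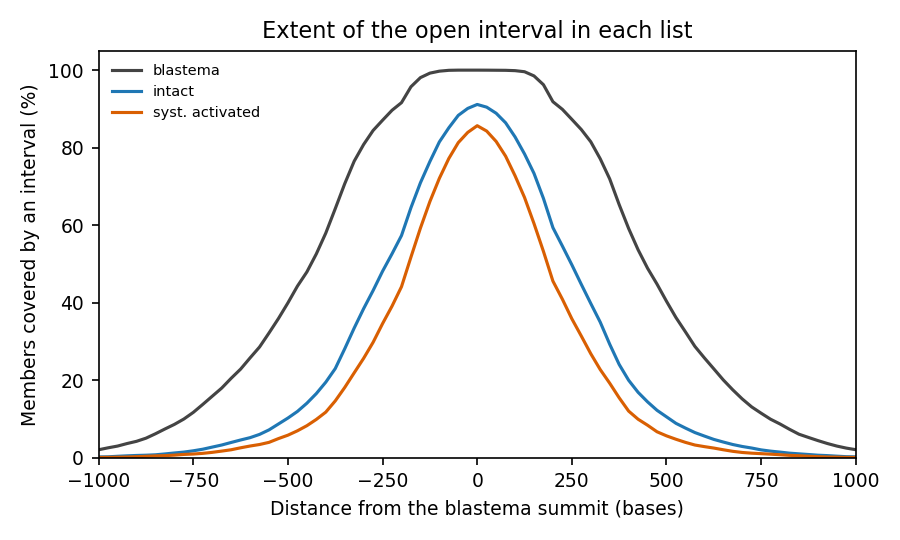
Percent of the 10473 regions in which an interval of each list covers a position, against distance from the blastema summit in bases (steps of 25). At the blastema summit 91.1% of regions were covered by an intact and 85.7% by a systemically activated interval. At 500 bases above it, the shares were 40.4% for blastema, 10.6% for intact and 5.67% for systemically activated limb.

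The limb intervals also overlapped one another: in 10115 of 10473 regions, or 96.6% (96.2 to 96.9), the strongest intact and the strongest systemically activated interval shared at least 1 base. The rule does not require this, since it asks each to overlap the blastema interval. Widths favour it strongly, though, with limb medians of 495 and 381 bases in regions of a median 945 bases. The share is therefore a description, and no share for random placement was computed. The blastema summit lay inside the strongest intact interval in 89.9% of regions and inside the strongest systemically activated interval in 84.5%. The blastema summit lay between 25% and 75% of the length of the region in 85.3%.

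Summit positions were not used by the rule, and the 3 group lists come from different samples. The overlap that the rule asks for still limits how far apart summits can lie. No distances for random placement were computed, so the distances are a description. Here the strongest peak of each limb list stands for a region. The intact and systemically activated summits lay a median of 83 bases apart (80 to 85). The blastema summit lay a median of 73 bases (70 to 75) from the intact summit and 75 bases (72 to 77) from the systemically activated summit. Both distances start from the same blastema summit in the same regions, so these 2 medians are not compared by their intervals. All 3 summits fell within 100 bases of each other in 3843 regions, or 36.7% (35.8 to 37.6), beside 37.2% of all 12379 blastema peaks that both limb lists overlap at any width. They fell within 200 bases in 65.8% and within 10 bases in 229 regions.

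**Figure D2:**
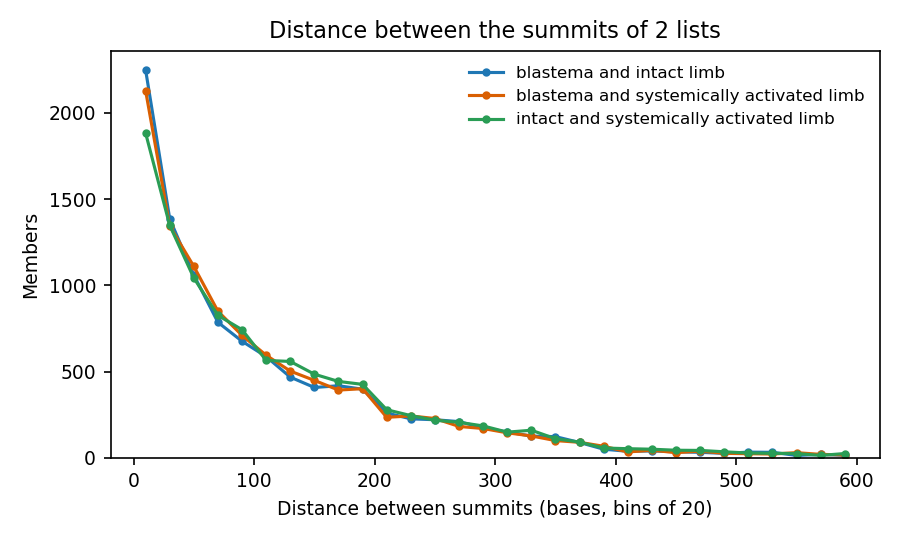
Number of regions by the distance between the summits of a pair of lists, in bins of 20 bases. In all 3 pairs the first bin (under 20 bases) was the fullest, with 2249 regions for blastema and intact limb, 2129 for blastema and systemically activated limb and 1883 for both limb lists.

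Where the 3 summits spread over more than 100 bases, no list was the usual odd one out. In these 6630 regions the closest pair was blastema and intact in 35.1%, blastema and systemically activated in 34.9% and both limb lists in 29.9%, with 8 ties. In 58.4% of them (3875 regions) the closest pair still lay within 50 bases. The closest pair of 3 positions always lies nearer than their span, and no share for random placement was computed. This share is therefore a description only.

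Summits coincided more closely in stronger regions. By decile of blastema −log10 q, the median span of the 3 summits was 193 bases in the weakest decile, 160 bases in the fifth and 73.5 bases in the strongest. The share with all 3 within 100 bases was 20.9% in the weakest and 62.3% in the strongest decile. Over all regions, Spearman's rho between blastema −log10 q and the span was −0.23 (n = 10473). Median limb pileups rose over the same deciles, from 16 to 27 in intact limb and from 13 to 21 in systemically activated limb. The part of these counts in the result was not tested. Coverage moved the same way: intact intervals covered a median of 45.7% of a region in the weakest and 67.6% in the strongest decile, and systemically activated intervals 39.7% and 55.8%.

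**Figure D3:**
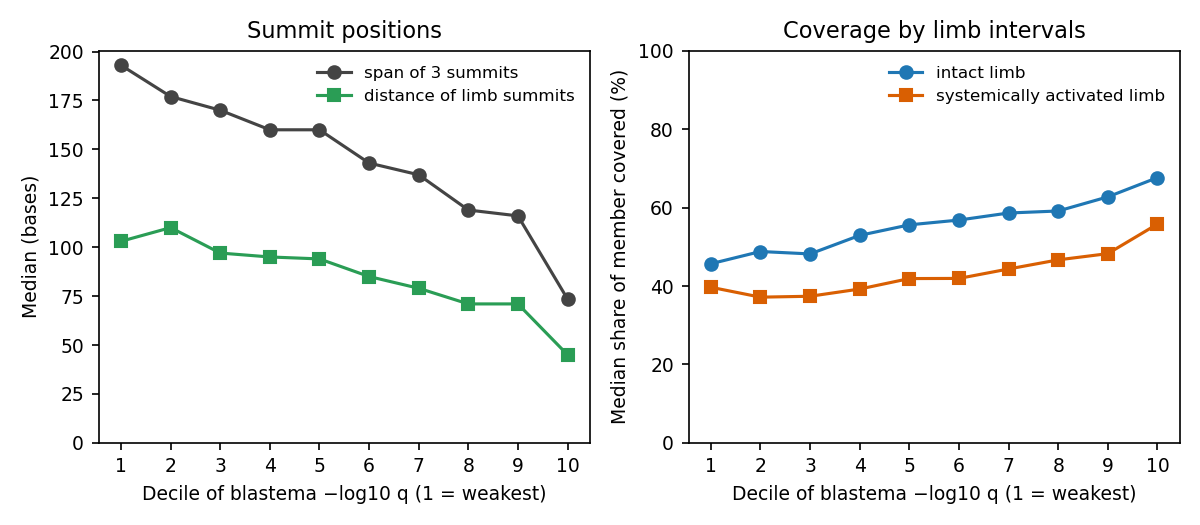
Left, median span of the 3 summits and median distance between the limb summits, in bases, by decile of blastema −log10 q; right, median percent of a region covered by intervals of each limb list. The span was 193 bases in the weakest and 73.5 bases in the strongest decile, and coverage was highest in the strongest decile in both limb lists.

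Width went the other way. In regions under 700 bases the limb summits lay a median of 66 bases apart and all 3 summits were within 100 bases in 45.1%. In regions of 1300 bases or more these values were 95 bases and 29.9%, although blastema −log10 q was higher in the wider regions (medians 14.7 and 20.4). The covered share fell with width as well, from 61.4% to 51.7% for intact limb and from 50.2% to 36.9% for systemically activated limb. The limb intervals themselves were wider in wider regions, with medians of 386 and 657.5 bases in intact limb and of 311 and 466 bases in systemically activated limb.

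Most regions held a single interval of each limb list: 9563, or 91.3% (90.8 to 91.8), beside 89.1% of all blastema peaks that both limb lists overlap. Intact limb had 2 or more intervals in 551 regions and systemically activated limb in 448, with 89 regions split in both. The 910 regions split in either list were wide, with a median of 1184.5 bases against 923 bases for those with 1 interval each. The split share was 1.15% under 700 bases and 22.7% from 1300 bases. Blastema −log10 q barely differed, with medians of 18.5 in split regions and 18.4 in the others.

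In split regions both intervals of a pair overlap 1 blastema interval under 1500 bases wide, which limits how far apart they can lie. Their spacing is therefore a description. The summits of the 547 intact pairs lay a median of 505 bases apart (491 to 516) with a gap of 156 bases between the intervals. The 446 systemically activated pairs had a median spacing of 484.5 bases (466 to 504) and a gap of 159.5 bases. The single blastema summit lay in the stronger intact interval in 65.1% (60.9 to 69.1), in the weaker in 24.9% and in neither in 10.1%. For systemically activated pairs these shares were 58.1%, 29.4% and 12.6%. In 459 regions intact limb had 2 intervals and systemically activated limb 1. The single interval there met only the stronger intact interval in 219, only the weaker in 85, both in 151 (32.9%) and neither in 4. In the reverse case, 357 regions with 2 systemically activated intervals and 1 intact interval, the intact interval met both in 267 (74.8%), only the stronger in 63 and only the weaker in 27. A single intact interval thus more often met both intervals of the other limb list, and intact intervals were also the wider ones.

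The ranks of the regions by height were correlated across lists, while the heights themselves differed. Over the regions, Spearman's rho of the summit pileup was 0.76 between blastema and intact limb (n = 10472), 0.69 between blastema and systemically activated limb (n = 10460) and 0.73 between both limb lists (n = 10459). With −log10 q, which also depends on the background, the values were 0.62, 0.52 and 0.53 (n = 10473). The local background itself, which the authors' peak caller takes from the surroundings of a summit, had rho of 0.89, 0.83 and 0.93. The lists share the genome sequence and this background, and the part of either in the values was not tested. The intact pileup was a median of 1.29 times the systemically activated pileup (5th to 95th percentile 0.867 to 1.90), and the background ratio was 1.51. The blastema pileup was 2.81 times the intact pileup at a background ratio of 4.22, and 3.67 times the systemically activated pileup at a background ratio of 6.45.

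**Figure D4:**
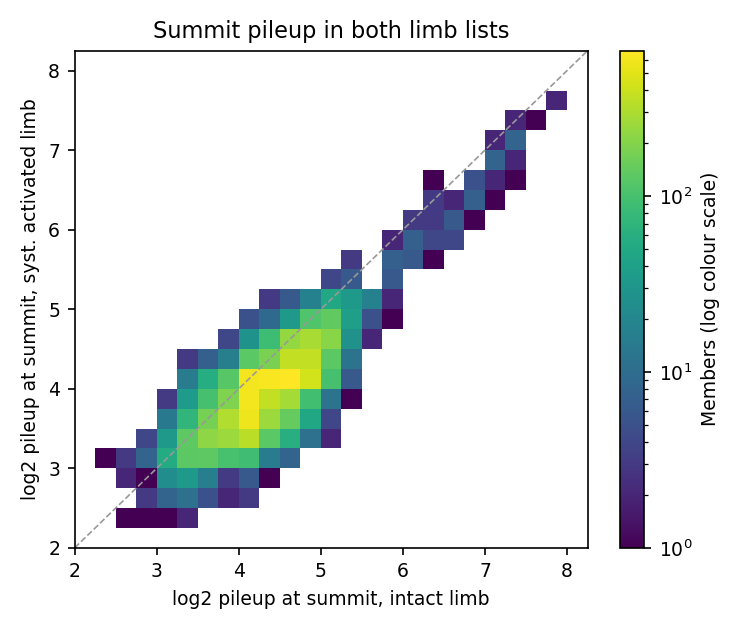
Number of regions (log colour scale) by the log2 pileup at the summit in intact limb (horizontal) and systemically activated limb (vertical), in bins of 0.25, with the line of equal pileup dashed. Spearman's rho was 0.73 over 10459 regions, and 82 regions with an intact pileup of at least 64 form the upper arm of the cloud.

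The regions of highest mean rank in all 3 lists had nearly the same interval in each. The first, on arm 4p, segment 0, from 29916725 to 29917896, was 1172 bases wide in blastema, 1105 in systemically activated limb and 1091 in intact limb. Its pileup was 319 in blastema (Poisson 95% interval 285 to 356), 220 in intact limb (191.9 to 251.1) and 194 in systemically activated limb (167.7 to 223.3). All 3 summits lay within 11 bases. The second, on 6q, segment 1, from 307645022 to 307645970, had the highest pileups of all regions, with 337, 242 and 203 in the same order and a span of 21 bases. It was stacked high in every list.

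The third, on 3q, segment 0, from 130527972 to 130528498, had the highest blastema −log10 q, 260.9, with pileups of 274, 155 and 100 and a span of 8 bases. The fourth, on 3p, segment 1, from 367585239 to 367585747, had pileups of 245, 147 and 127. The fifth, on 1p, segment 0, from 196010688 to 196011413, had 264, 161 and 131. In all 5 the pileup was highest in blastema and lowest in systemically activated limb, which is also the order of list depth. The fold over background was instead lowest in blastema in all 5. On 4p it was 16.1 in blastema, 18.3 in intact limb and 19.4 in systemically activated limb. The part of depth in this was not tested. The limb intervals covered from 83.6% to 96.0% of the region. Their positions are given on the sequences that the files name, counted within a segment of an arm.

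Other regions stood at very different ranks in the lists. Ranks here are percentiles of −log10 q among the regions, taken within each list. The 5 regions named first ranked highest in limb relative to blastema. The first, on 6q, segment 2, from 259387801 to 259388509, was at percentile 2.6 in blastema, 82.4 in intact limb and 84.3 in systemically activated limb. Its pileups were 23 (14.6 to 34.5), 20 (12.2 to 30.9) and 17 (9.9 to 27.2), so blastema was stacked barely higher than the shallower lists. The second, on 3q, segment 0, from 79941798 to 79942390, had pileups of 38, 28 and 24 and percentiles of 15.3, 93.0 and 96.0. Another was on 13p from 213998114 to 213998681. The remaining ones were on 3p, segment 1 (126620993 to 126621741) and on 2q, segment 1 (417285814 to 417286918). On 13p the intact interval was 671 and the systemically activated interval 726 bases wide, against 568 bases in blastema. On 3p the blastema pileup of 73 stood at percentile 80.1 among regions, over a background of 24.6. The blastema summit lay 153 bases from both limb summits there. On 2q it lay 114 bases from the intact and 101 bases from the systemically activated summit. Pileups of these regions were thus read at different positions.

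In the reverse direction, the first region was on 11q, segment 2, from 350080949 to 350082121. It had a blastema pileup of 59 (44.9 to 76.1) at percentile 86.3 of −log10 q, an intact pileup of 8 (3.5 to 15.8) and a systemically activated pileup of 7 (2.8 to 14.4). In −log10 q these limb peaks stood at percentiles 5.4 and 7.7. On 3q, segment 3, from 261906508 to 261907175, the pileups were 79, 14 and 10. The others were on 3p, segment 1 (251759969 to 251760877), 10p, segment 0 (187317551 to 187318591), and 12q, segment 0 (153889975 to 153890962). In all 5 the limb pileups ran from 7 to 16. The blastema summit lay 167 bases from the intact summit on 10p and 197 bases from the systemically activated summit on 12q.

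Between the limb lists, the region ranked highest in intact relative to systemically activated limb was on 3q, segment 3, from 195935041 to 195935993. Its pileup was 38 in intact limb (26.9 to 52.2) and 11 in systemically activated limb (5.5 to 19.7), with 66 in blastema. It stood at percentile 98.2 of intact and 2.7 of systemically activated limb. On 11p from 210519190 to 210519966 the pileups were 38 and 13. On 5q, segment 2, from 424707734 to 424708582 they were 30 and 10. On 3q, segment 0, from 236582624 to 236583928 they were 22 and 7, and on 6q, segment 0, from 49754924 to 49756008 they were 28 and 11. The limb summits lay 198 bases apart in the leading region and 567 bases apart in the region on 3q, segment 0, so the pileups of these regions were read at different positions. In the other regions of this direction they lay 18 to 80 bases apart.

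The opposite was led by a region on 8q, segment 1, from 163542856 to 163543927, with 23 reads stacked in systemically activated limb (14.6 to 34.5) and 14 in intact limb (7.7 to 23.5). These intervals overlap, and the percentiles were 91.2 and 1.8. On 1p, segment 0, from 14888092 to 14888832 the pileups were 20 and 11. On 8q, segment 0, from 191443634 to 191444595 they were 32 and 21. On 12p they were 21 and 11 from 43160240 to 43160847, and 20 and 11 from 185340978 to 185341953. The limb summits were 2 bases apart in the leading region and 238 bases apart in the region on 12p from 43160240. In each of these 5 the systemically activated pileup was the higher, but its Poisson interval overlapped the intact one in all 5. They were chosen for a higher rank in systemically activated limb, which favours this direction. Over all regions the intact pileup was a median of 1.29 times the systemically activated one. These regions were picked as extremes of 10473, and no replicate stands behind any of them.

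Regions were mostly far from each other. The nearest other region lay a median of 478982 bases away, and 513 regions, or 4.90% (4.49 to 5.33), had another within 20 kb, beside 6.71% for all blastema peaks that both limb lists overlap. The latter share counts neighbours of any width among those 12379 peaks, a larger set, so the shares are not compared. These 513 formed 234 pairs, 12 groups of 3, 1 of 4 and 1 of 5. The group of 5 spanned 49045 bases on 10p, segment 0, from 28133044 to 28182088, where the blastema list had 7 peaks. Its members differed in height. The region from 28168191 to 28169256 had pileups of 101 in blastema, 51 in intact and 38 in systemically activated limb. The next region, 686 bases on, from 28169943 to 28170517, had 91, 30 and 15. In it systemically activated limb stood at percentile 1.5 of −log10 q, against 62.8 for intact limb and 89.6 for blastema, over a local background of 3.54. The region from 28133044 to 28133654 had 60, 26 and 17, with a blastema fold of 15.6. The remaining regions, from 28147467 to 28148815 and from 28181098 to 28182088, had intact pileups of 16 each.

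Any blastema peak, shared or not, lay closer. The nearest was a median of 20743 bases away and within 10 kb for 35.2% of the regions (34.3 to 36.1), beside 35.3% of all blastema peaks on named arms. Narrow peaks under 500 bases that both limb lists overlap had one within 10 kb in 49.8% and broad peaks of 1500 bases or more in 32.2%.

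The regions lay on all 28 chromosome arms, from 102 on 12p to 860 on 3q. The highest shares of an arm's blastema peaks were on 14p with 8.82% (7.37 to 10.4), 13p with 8.47% (7.28 to 9.80), 13q with 8.01%, 11p with 7.86% and 14q with 7.75%. The lowest were on 5p with 5.02% (4.47 to 5.61) and 7q with 5.21%. All 4 arms of chromosomes 13 and 14 were thus among the 5 highest. The intervals of 14p and 5p do not overlap, but these arms are the extremes of 28 ranked by the share. Shorter arms had higher shares: rho between the length spanned by peaks and the share was −0.51 over 28 arms. Within the width range of the regions, rho was −0.19, and the share ran from 21.5% on 8q to 29.8% on 14p. In that range it was 27.2% on 14q, 25.15% on 13p and 25.02% on 13q, beside 24.8% over all arms. The arms of chromosome 13 thus ranked high among blastema peaks of all widths but lay near the overall share in this width range. Per 100 Mb spanned, the number of regions ran from 22.7 on 5p to 74.7 on 13q, with 39.2 over all arms.

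**Figure D5:**
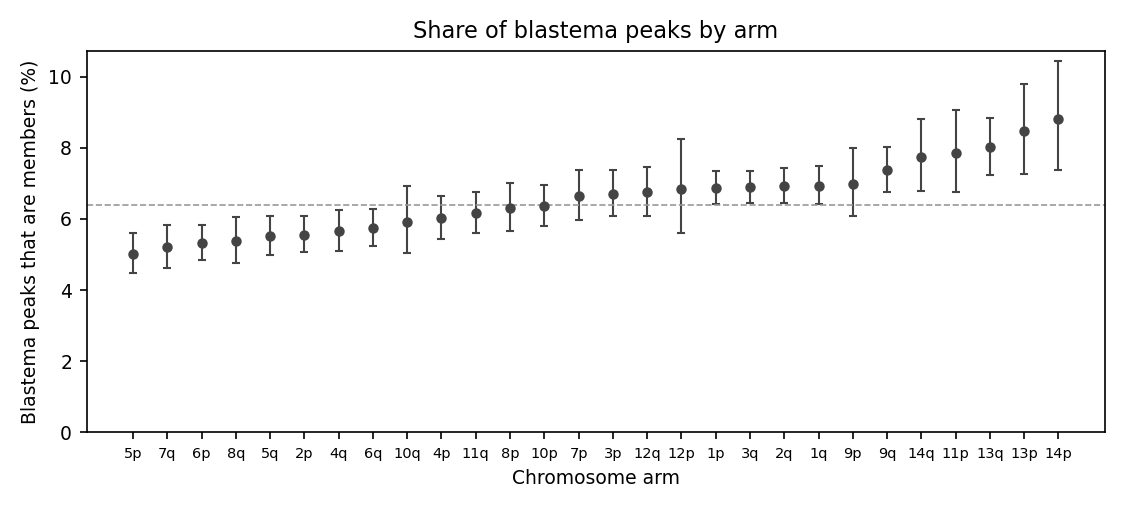
Percent of each arm's blastema peaks that are among the 10473 regions, with exact binomial 95% intervals as bars, arms ordered by the value; the dashed line is the 6.40% over all arms. The arms of chromosomes 13 and 14 and 11p stand at the upper end, from 7.75% to 8.82%.

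Along the arms, the most regions lay in the first 10% of p arms and the last 10% of q arms, counting in the direction of the coordinates. The first 10% of the p arms held 844 of 4569 regions, or 18.5%, and 16.6% of the blastema peaks of p arms. The last 10% of the q arms held 1378 of 5904 regions, or 23.3%, and 19.3% of the blastema peaks. The regions in the first 10% of p arms and the last 10% of q arms also had the highest blastema −log10 q. The medians were 22.2 and 22.4 against 16.5 to 18.7 in the other 10% steps. Blastema pileups differed less (63 and 62 against 56.5 to 61), and local backgrounds were 10.8 and 10.1 against 10.2 to 12.3. By windows of 5 Mb, the most regions were in neighbouring windows of 1q from 1405 to 1415 Mb along the arm, with 29 each, where 2 was the median of windows with any. No count of all blastema peaks in these windows stands beside these numbers, so they do not show a higher share of regions there.

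In pileup, summit distance and number of limb intervals, the regions stood between the neighbouring width classes. The 802 narrow peaks under 500 bases that both limb lists overlap had a median blastema pileup of 38, and the 1104 broad peaks of 1500 bases or more had 70, beside 59 in the regions. The limb summits lay a median of 52.5 bases apart in narrow peaks (45 to 58) and 119.5 bases in broad peaks (106 to 131), beside 83. All 3 summits were within 100 bases in 56.9%, 27.4% and 36.7%. A single interval of each limb list was found in 99.9% of narrow, 60.2% of broad and 91.3% of the medium-width peaks. In fold over background they did not: the median blastema fold was 4.60 in narrow (4.47 to 4.85), 4.79 in medium-width (4.77 to 4.83) and 4.43 in broad peaks (4.37 to 4.52). The intact fold was 5.76, 5.77 and 5.49, and the systemically activated fold 5.85, 5.98 and 5.75, in the same order. The differences were not tested, since width set the classes.

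The all-sample list, which includes the same reads, held most regions within a single interval. An all-sample peak overlapped every region, 1 peak in 10456 and 2 peaks in 17. The strongest had a median width of 1106 bases and held the whole region in 83.7%. Its summit lay a median of 11 bases from the blastema summit, 52 bases from the intact summit and 56 bases from the systemically activated summit, in the order of the depth of the lists.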

How the data were processed

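Sorted cells were transposed with Tn5 and libraries amplified, per the labels' protocols. Per the submitters' processing notes, alignment used Bowtie2 2.3.2 and peak calling MACS2. The genome build is not given in the sources used here, nor are the MACS2 version and settings, duplicate handling, a shift of reads or a control. The authors deposited 4 lists, with samples of a group pooled into 1 list in a manner not stated. Each peak carries its coordinates and the offset of its summit. It also carries a score that the authors deposited (not used), a fold (ratio of summit pileup to background) that the authors deposited, and −log10 p and −log10 q values that the authors deposited, where the q-value is adjusted within a list. Folds, p and q are the authors' own and served to describe and rank peaks within a list.

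Starts were made 1-based. A whole pileup k and background b were solved from fold = (k + 1)/(b + 1) and the Poisson tail, within 0.001 of −log10 p (relatively wider above 20), and kept where exactly 1 k was found. Pileups are stacked reads without molecular identifiers. Their Poisson intervals, the exact binomial intervals of shares and the order-statistic intervals of medians (all 95%) cover counting error only. The limb peak of highest −log10 q stands for a region. Positions along an arm rest on reading the last number of a sequence name as the offset of its segment, which no source states, and arm length is the end of the last peak of any list. Overlap and pileup recovery were tested on simulated data, the former against bedtools 2.31.1. Python 3.11.15, pandas 2.3.3, scipy 1.17.1 and matplotlib 3.10.9 were used. No column of per-sample values was left out.

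The regions, results and alternatives were chosen with earlier results of these data known. Named regions are the 5 of highest mean rank by −log10 q over the 3 lists, the 5 with the largest rank difference in each direction between limb and blastema and between the limb lists, and the largest group with gaps of at most 20 kb. The alternatives changed the overlap rule, the threshold, the width limits, merging, sequences, the limb peak taken and list length. With 1 list per group no test over samples could be made.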

Additional observations from a re-analysis of the deposited data

How the results depend on the processing

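The results were the number of regions, the shares, medians and coverage below and rho of −log10 q between the limb lists. Sharing of 50% of the shorter interval, merging of intervals closer than 100 bases, inclusion of unplaced sequences (10763 regions) and taking the limb peak with the nearest summit moved no share, median or rho beyond its counting interval. Width limits of 400 and just under 2000 bases moved the share with 1 interval of each limb list to 89.2% and the share within 20 kb of another region to 5.87%. With the blastema summit inside the limb interval, which leaves 8442 regions, the share with 1 interval of each was 100% by construction, that of 3 summits within 100 bases 45.8%, the median limb summit distance 71 bases, coverage 56.9% (intact) and 44.4% (systemically activated), and the share within 20 kb 4.24%. At −log10 q of at least 5 the number fell to 6018, with 96.6%, 43.8%, 68 bases, 60.2%, 47.0% and 3.54% in the same order, and rho between the limb lists was 0.46. With lists of equal length (7878 regions) these were 92.9%, 40.5%, 76 bases, 58.4%, 44.8% and 4.00%, and rho was 0.49. With pileup in place of −log10 q, chosen after seeing the data, rho was 0.73. Asking for the blastema summit inside the limb interval itself limits how far apart summits can lie. The summit values of that setting are therefore not read as a result. The stricter lists, by −log10 q of at least 5 or by equal length, gave closer summits and fuller coverage, and the cause was not tested. The share within 20 kb fell as well, but fewer regions leave fewer possible neighbours, so this fall is not read as a result. No replicate could be left out. No paired analysis was possible because each list pools the samples of a group and no result comes from a test. Limb lists of low depth may limit how exactly a summit or an edge is placed, which was not tested. A blastema peak that they do not overlap, and that is thus not a region, may be open below their detection.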

Other observations

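Summit distances fell off in a step at 200 bases in all 3 pairs of lists, seen after the values were examined. The limb summits lay 160 to under 200 bases apart in 869 regions and 200 to under 240 bases apart in 524. For blastema and intact limb these numbers were 816 and 486, and for blastema and systemically activated limb 794 and 478. The smallest interval was 200 bases in all 4 lists.

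Regions with an intact pileup of at least 64, a value chosen after seeing the plot of pileups in both limb lists, numbered 82 on 18 arms. Their median pileups were 208.5 in blastema, 108 in intact limb and 82 in systemically activated limb. The intact pileup chose these regions, so its ratios to the other lists are not compared. The 3 summits lay within 100 bases in 70 of the 82, with a median span of 20.5 bases, and intact and systemically activated intervals covered medians of 86.3% and 77.8% of the region.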
